A study of Mus musculus with 16 samples.

Results

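The genes described here are Aqp4, which encodes the water channel aquaporin-4 of fast muscle fibres, and 7 genes of the dystrophin complex that holds this channel at the fibre membrane, namely Dmd, Dag1, Sgca, Sgcb, Sgcd, Dtna and Sspn. They were taken from the deposited table by gene symbol, and all 8 were found among its 14538 genes. Aqp4 was chosen by measured values of these libraries, its difference between GDF15-treated and pair-fed mice, so that its values are given as a description with no test. The 7 other genes were taken along as parts of the complex. RNA came from the tibialis anterior, a fast muscle of the lower leg, of 5 mice given vehicle, 6 given recombinant GDF15 and 5 that were pair-fed, and each mouse gave 1 library. All were wild-type (WT) C57BL/6 males that had been on a NASH diet, a fatty diet used to produce steatohepatitis, and in housing at about 29 °C since 8 weeks of age. GDF15 was injected under the skin daily, at a dose that the labels do not single out for these mice, and pair-fed mice were given each day what GDF15-treated mice had eaten on the previous day. The comparison of GDF15 with pair-feeding therefore asks what GDF15 does to muscle beyond lowering food intake, and the comparison of pair-feeding with vehicle asks what the smaller food intake does. In the study, mice on the higher GDF15 doses also lost more weight than pair-fed mice, and time of feeding was examined in a separate experiment. Intake, time of feeding and weight loss cannot be told apart in these comparisons.

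Dystrophin, the product of Dmd, is a long rod that binds actin inside the fibre. At the membrane it meets beta-dystroglycan, which is cut from the Dag1 product together with alpha-dystroglycan, the part that grips laminin outside. The sarcoglycans and sarcospan form a second set of membrane proteins in this complex, and dystrobrevin is attached to it from within. Mice that lack dystrophin have less of the water channel at the fibre membrane. The values given are of RNA, not of protein or of its place in the fibre. On GRCm38, in GENCODE vM21, Aqp4 lies at chr18:15389496-15410982 (minus strand), Dtna at chr18:23415135-23659715 (plus), Dmd at chrX:82948870-85206141 (plus), Dag1 at chr9:108204634-108263958 (minus), Sgca at chr11:94962791-94976327 (minus), Sgcb at chr5:73632749-73647790 (minus), Sgcd at chr11:46896253-47988969 (minus) and Sspn at chr6:145931641-145965223 (plus).

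Levels are normalized counts, and differences are on the scale of log2(normalized count + 1), fitted with limma over all 3 groups and the 11841 genes whose normalized counts averaged 10 or more. A gene passed at a Benjamini-Hochberg adjusted p under 0.1, and was called when its log2 fold change was also above 0.6 in size. The approximate depth was 9486000 to 15039000 reads per library, with medians of 13888000 in vehicle, 12131500 in GDF15 and 14284000 in pair-fed mice. Fast fibre genes marked the tissue as labelled, with Myh4 (myosin IIb) at a mean of 857746 normalized counts. In whole muscle, fewer fibres expressing a gene and less of its RNA in each fibre cannot be told apart.

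Aqp4 lay at similar levels in vehicle-treated and GDF15-treated mice and at a lower level in pair-fed mice. The 5 vehicle-treated mice had 544, 619, 832, 488 and 528 normalized counts of Aqp4, a mean of 602 ± 137 (SD, n = 5). The 6 GDF15-treated mice ranged from 432 to 595 around a median of 523, with a mean of 520 ± 64.8 (SD, n = 6). Pair-fed mice 2 to 6 had 255, 429, 339, 275 and 193, a mean of 298 ± 89.9 (SD, n = 5). All 5 pair-fed mice lay below all 11 others, but the gap was narrow at its edge, where pair-fed mouse 3 had 429 and GDF15-treated mouse 3 had 432. The GDF15 and vehicle groups overlapped.

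The Aqp4 difference between GDF15 and pair-feeding was 0.84 on the log2 scale (SE 0.17, 95% confidence interval 0.50 to 1.19), or 1.80-fold. Pair-fed mice were lower than vehicle-treated mice by 1.04 (fitted value -1.04, SE 0.17, interval -1.40 to -0.67), or 2.05-fold. For GDF15 against vehicle the value was -0.19 (SE 0.17, interval -0.54 to 0.16). These 3 values share their libraries, so the last 2 are no independent check of the difference by which Aqp4 was chosen. Because Aqp4 was chosen by its GDF15 to pair-fed difference, that size and its interval are not corrected for the choice and may be too large. Leaving out libraries describes the spread of this value and is no check of it. With each library left out in turn, the GDF15 to pair-fed difference lay between 0.70, without pair-fed mouse 6, and 0.99, without pair-fed mouse 3. On the deposited values without transforming them back it was 0.51, under the limit of 0.6, and pair-fed against vehicle was then -0.64. The coefficient of variation of Aqp4 was 30.2% in pair-fed, 12.4% in GDF15-treated and 22.7% in vehicle-treated mice.

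**Figure D1:**
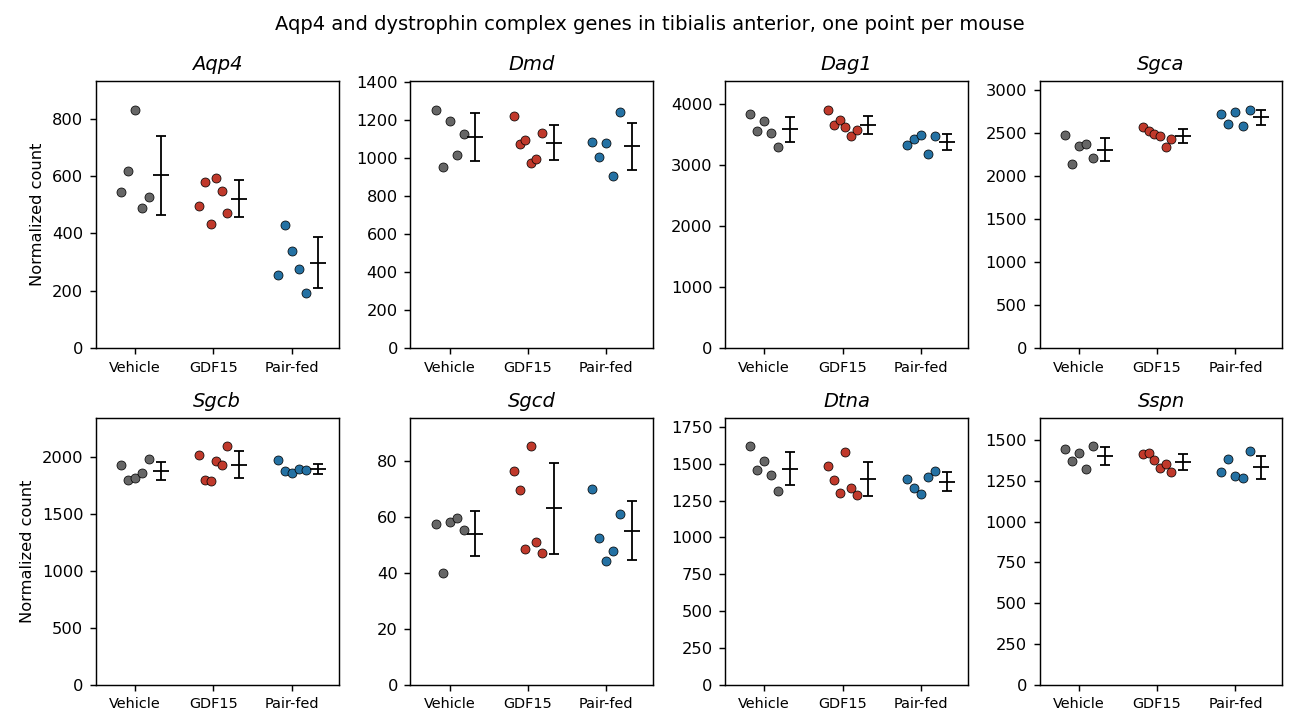
Normalized counts (vertical axes, from 0) of the 8 genes in each mouse, with 1 point per mouse and the mean ± SD beside each group. Pair-fed mice have the lowest Aqp4 values (193 to 429) and the highest Sgca values (2584 to 2774), whereas the groups overlap for the remaining 6 genes.

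Sgca, which encodes alpha-sarcoglycan, a single-pass membrane glycoprotein made in striated muscle, was higher in pair-fed than in vehicle-treated mice. Its values were 2480, 2143, 2347, 2374 and 2210 normalized counts in vehicle-treated mice and 2720, 2604, 2746, 2584 and 2774 in pair-fed mice. GDF15-treated mice lay between, from 2338 to 2577 with a median of 2476. No pair-fed mouse overlapped either other group, so that pair-feeding carried the highest Sgca and the lowest Aqp4. The mean was 2311 ± 134 (SD, n = 5) in vehicle, 2470 ± 82.1 (n = 6) in GDF15 and 2686 ± 86.2 (n = 5) in pair-fed mice. Pair-fed mice exceeded vehicle-treated mice by 0.22 on the log2 scale (SE 0.04, interval 0.13 to 0.31), which is 1.16-fold, with an adjusted p of 0.0103 in limma. This passed the test but lay under the limit of 0.6 for a call. It held with each library left out, at 0.19 to 0.24 with adjusted p from 0.0073 to 0.0339. The Sgca difference between GDF15 and pair-feeding was -0.12 (SE 0.04, adjusted p = 0.192), and that between GDF15 and vehicle was 0.10 (SE 0.04, adjusted p = 0.374), and neither passed.

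The 2 other sarcoglycan genes of the set gave no such difference. Sgcb (beta-sarcoglycan, the core on which the sarcoglycan complex is assembled) had 1931, 1801, 1815, 1857 and 1984 normalized counts in vehicle-treated mice and 1972, 1882, 1860, 1897 and 1887 in pair-fed mice. In GDF15-treated mice it ranged from 1788 to 2096 with a median of 1951. The groups overlapped throughout, and the pair-fed to vehicle difference was 0.02 (SE 0.05, interval -0.08 to 0.11, adjusted p = 0.887). Sgcd (delta-sarcoglycan, the close partner of beta-sarcoglycan) was the least abundant of the set, with only about 40.0 to 82.1 reads behind each value. Vehicle-treated mice had 57.5, 40.0, 58.3, 59.8 and 55.3 normalized counts, pair-fed mice had 70.3, 52.5, 44.2, 47.9 and 61.3, and GDF15-treated mice ranged from 47.3 to 85.4 with a median of 60.5. The intervals of the 3 Sgcd differences reached from -0.37 to 0.57 in all, and so include a difference of the size seen for Sgca.

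Dag1, the laminin receptor of the complex, was its most abundant gene by normalized count. Vehicle-treated mice had 3827, 3564, 3712, 3518 and 3296, pair-fed mice had 3325, 3431, 3485, 3173 and 3469, and GDF15-treated mice ranged from 3474 to 3906 with a median of 3640. Of the 5 pair-fed values 4 lay below all GDF15 values and 1, that of pair-fed mouse 4, just inside their range, and the pair-fed and vehicle groups overlapped too. The difference between GDF15 and pair-feeding was 0.12 (SE 0.04, interval 0.03 to 0.20), with an adjusted p of 0.225 in limma. It passed only when the libraries were scaled to equal summed counts, at an adjusted p of 0.0868. For pair-fed against vehicle the value was -0.08 (SE 0.04, adjusted p = 0.307).

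Dmd did not separate the groups. Dystrophin counts were 1256, 952, 1199, 1015 and 1129 in vehicle-treated mice and 1085, 1005, 1081, 907 and 1242 in pair-fed mice, and they ran from 973 to 1221 with a median of 1086 in GDF15-treated mice. The differences of Dmd lay between -0.06 and 0.03 on the log2 scale, with adjusted p of at least 0.760, and their intervals stayed within -0.24 and 0.20.

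The cytoplasmic and the small membrane partner gave the same picture. Dtna (alpha-dystrobrevin, which binds dystrophin) had 1619, 1459, 1521, 1425 and 1313 normalized counts in vehicle-treated mice, 1394, 1335, 1298, 1414 and 1454 in pair-fed mice, and 1291 to 1580 with a median of 1364 in GDF15-treated mice. Sspn (sarcospan, a tetraspanin-like protein that sits with the sarcoglycans) had 1443, 1374, 1418, 1325 and 1462 in vehicle-treated mice, 1305, 1384, 1280, 1265 and 1432 in pair-fed mice, and 1306 to 1421 with a median of 1363 in GDF15-treated mice. All 3 groups overlapped for both genes. The lowest values were -0.09 for Dtna (SE 0.06, adjusted p = 0.489) and -0.08 for Sspn (SE 0.04, adjusted p = 0.378), both for pair-fed against vehicle. Exons of Dtna overlap those of Gm47898 on the opposite strand, and exons of Sspn overlap those of Sspnos. The library kit keeps the strand, but the strand setting of the quantification is not given in the sources used here, so reads of these antisense genes cannot be told apart with certainty.

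**Figure D2:**
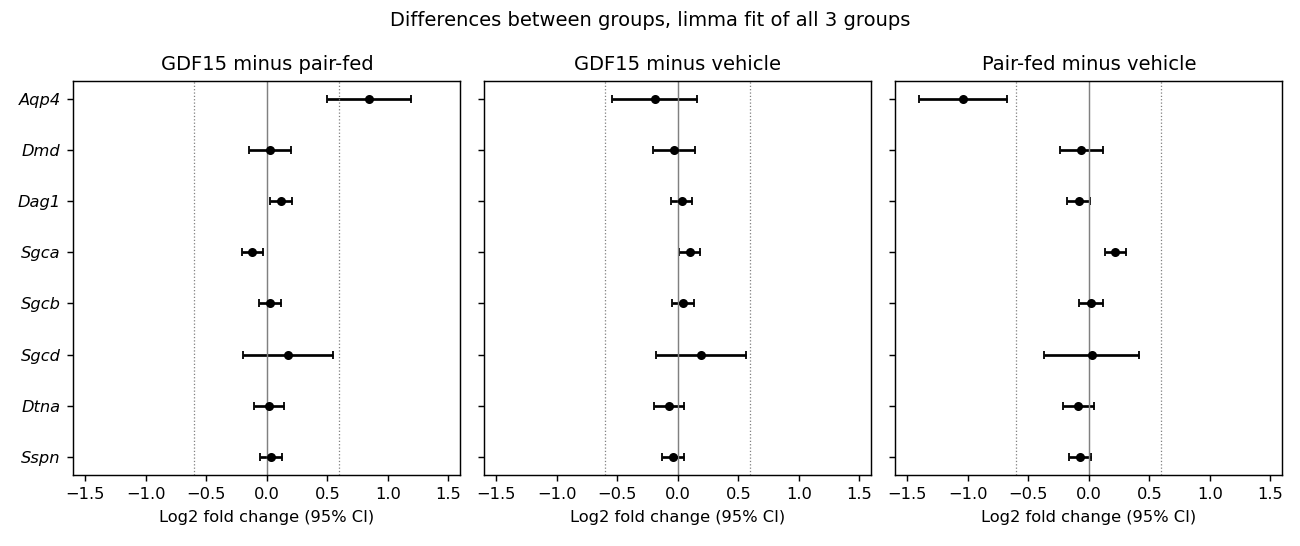
Log2 fold change (horizontal axes) of each gene in the 3 comparisons, with bars for the 95% confidence interval of the limma fit and dotted lines at -0.6 and 0.6. Aqp4 lies at 0.84 for GDF15 against pair-fed and -1.04 for pair-fed against vehicle, while the 7 other genes lie between -0.12 and 0.22.

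Aqp4 was left out of the counts, since its selection fixes its place in them. GDF15 against pair-feeding placed 0 of the 7 complex genes past the adjusted p. In limma, 2 of these 7 (Dag1 and Sgca) had an unadjusted p under 0.05. Of all 11841 tested genes, 0.279% were called in this comparison, 2.17% passed the adjusted p alone, 13.2% had an unadjusted p under 0.05 and 1.77% did not overlap between the groups, as Sgca did not. Against vehicle, GDF15 gave 0 of the 7 past the adjusted p and 0 without overlap, with 1 (Sgca) at an unadjusted p under 0.05. The background there was 0.304% called, 0.769% past the adjusted p, 11% at an unadjusted p under 0.05 and 1.65% not overlapping. Pair-fed against vehicle placed 1 of the 7, Sgca, past the adjusted p and 0 past the call, and Sgca did not overlap between the groups. The background was 0.819% called, 6.37% past the adjusted p, 18.9% at an unadjusted p under 0.05 and 5.44% not overlapping. The median over the 7 genes was 0.03, 0.03 and -0.06 in the 3 comparisons in this order, against 0.00 over all tested genes in each.

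Levels can be compared between the genes only per length of transcript. Over the longest coding transcript, Sgca was highest at 1443 normalized counts per kilobase, followed by Dag1 (627), Sgcb (503), Sspn (303), Dtna (225), Aqp4 (94.3), Dmd (72.8) and Sgcd (23.6). With the median length of the coding transcripts Sgca (1742) and Dag1 (824) still led and Sgcd (28.5) was still last, but the order between them became Dtna (518), Sgcb (503), Aqp4 (374), Sspn (309) and Dmd (245). The middle of this order therefore depends on which transcripts the muscle uses, which gene-level values do not show. Among mice of 1 group the 7 complex genes had median coefficients of variation of 5.82% in vehicle, 6.24% in GDF15 and 4.52% in pair-fed mice, and the largest of these values was that of Sgcd in GDF15-treated mice (25.7%).

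RefSeq promoter sequences of GRCm38.p6 were matched to 6 of the 8 genes, not to Aqp4 and Dtna. Sgca is shown because it was the complex gene that passed the test, and Cav3, described next, because it passed in the direction of Aqp4. The 250 bases before each start, 5′ to 3′ on the gene's strand, are at chr11:94976328-94976577 (minus) for Sgca and chr6:112459255-112459504 (plus) for Cav3.
Sgca: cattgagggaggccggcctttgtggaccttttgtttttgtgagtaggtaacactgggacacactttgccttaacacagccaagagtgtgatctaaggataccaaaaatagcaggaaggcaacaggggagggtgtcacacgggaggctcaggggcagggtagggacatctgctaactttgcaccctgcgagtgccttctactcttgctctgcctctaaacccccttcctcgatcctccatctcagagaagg
Cav3: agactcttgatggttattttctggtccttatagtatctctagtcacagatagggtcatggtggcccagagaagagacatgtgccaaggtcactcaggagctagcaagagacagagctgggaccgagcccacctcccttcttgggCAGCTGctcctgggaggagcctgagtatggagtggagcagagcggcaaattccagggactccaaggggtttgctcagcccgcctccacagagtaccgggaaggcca
Capitals mark CAGCTG, the E-box core read by myogenic factors such as MyoD. It was searched on both strands with TGACG, the half-site of the cAMP response element, and GTAAACA, a site read by FOXO factors. The upstream windows of 13.0%, 17.8% and 3.17% of 32851 RefSeq promoters held these 3 motifs in this order. Cav3 held 1 CAGCTG and no other motif, and 0 of the 9 windows of the 6 matched genes held any of the 3. A match of letters is a description and not a site in use.

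Other genes of the complex were read from a list of 11, of which 8 were tested. Between GDF15 and pair-feeding 1 of the 8 rose, Cav3, and 0 fell, while 2.17% of all tested genes passed. Cav3, which encodes the muscle caveolin that binds beta-dystroglycan, had 442, 400, 479, 404 and 425 in vehicle-treated mice, 373, 421, 389, 378 and 394 in pair-fed mice, and 423 to 493 with a median of 465 in GDF15-treated mice. The lowest GDF15 value was above the highest pair-fed value, and the difference was 0.25 (SE 0.06, interval 0.13 to 0.37, adjusted p = 0.0518). Cav3 was thus 1.19-fold higher, below the limit for a call, and it did not pass in the comparisons with vehicle. It no longer passed without GDF15-treated mouse 4 or pair-fed mouse 2, 5 or 6 (highest adjusted p 0.152).

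In pair-fed against vehicle-treated mice 0.819% of all tested genes were called. Among the 8, Dtnb (beta-dystrobrevin) was the only call, and it fell. Its counts were low, at 31.1, 27.6, 7.47, 28.9 and 25.3 in vehicle-treated mice, 5.92, 7.35, 10.9, 9.32 and 13.2 in pair-fed mice, and 10.7 to 21.5 with a median of 20.0 in GDF15-treated mice. Vehicle-treated mouse 3 lay among the pair-fed mice, so the groups overlapped. The value was -1.18 (SE 0.35, adjusted p = 0.0659), and it no longer passed without any 1 of vehicle-treated mice 1, 2, 4 and 5 or pair-fed mice 2 and 5 (highest 0.159). On the deposited values it was only -0.20, under the limit for a call. The partners named for their role lay close together. Nos1 (the nitric oxide synthase of the complex) had means of 2164, 2147 and 2055 in vehicle, GDF15 and pair-fed mice, and Utrn (utrophin, the dystrophin homologue) had 362, 366 and 349, with adjusted p of at least 0.635 in each comparison. Over the 8 genes the median was 0.13 for GDF15 against pair-fed and -0.10 for pair-fed against vehicle.

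**Figure D3:**
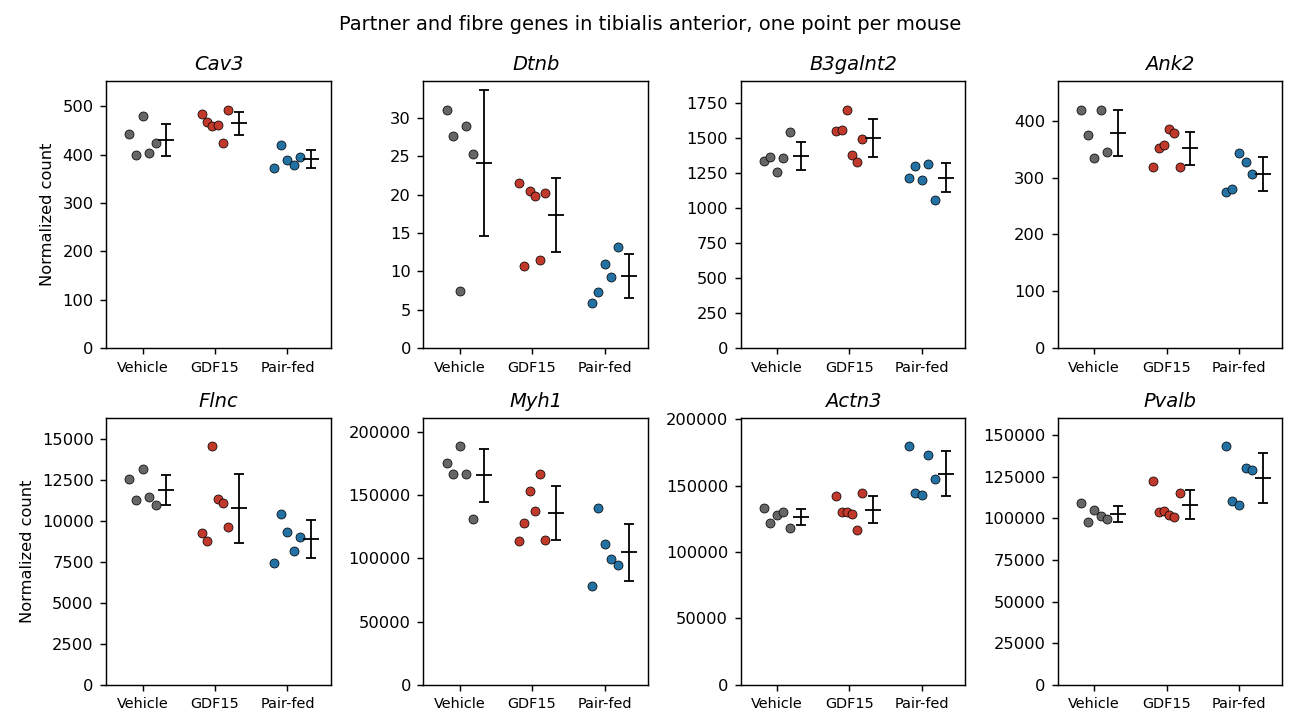
Normalized counts (vertical axes, from 0) of 8 partner and fibre genes in each mouse, with 1 point per mouse and the mean ± SD beside each group. GDF15-treated mice lie above pair-fed mice without overlap for Cav3 and B3galnt2, and pair-fed mice lie above vehicle-treated mice without overlap for Actn3.

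The layers around the complex were read the same way. Of 10 basement membrane genes that dystroglycan or the integrins bind, such as the laminin chains, 0 passed in any comparison in limma, with 1, 0 and 1 at an unadjusted p under 0.05, in the order in which the comparisons were counted above. The gene with the largest difference between GDF15 and pair-feeding was Lamb1 (laminin beta-1), at 0.40 (SE 0.17, adjusted p = 0.331). In GDF15 against pair-fed mice 2.17% of all tested genes passed. Of 17 tested genes that build the laminin-binding sugar of alpha-dystroglycan, 1 rose and 0 fell in this comparison. It was B3galnt2, which adds N-acetylgalactosamine to that sugar, with 1335, 1363, 1260, 1361 and 1540 normalized counts in vehicle-treated mice, 1215, 1300, 1198, 1317 and 1061 in pair-fed mice, and 1330 to 1703 with a median of 1524 in GDF15-treated mice. Its GDF15 and pair-fed values did not overlap, and the difference was 0.30 (SE 0.07, adjusted p = 0.0486). It no longer passed without pair-fed mouse 2 or 6 (highest 0.126).

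Of 14 genes of the integrin and costamere link, which ties the membrane to the contractile apparatus beside dystrophin, 2 fell and 0 rose in pair-fed against vehicle-treated mice. Among all tested genes, 6.37% passed in that comparison. Flnc (filamin C, an actin crosslinker that binds sarcoglycans) had 12582, 11282, 13195, 11495 and 11002 in vehicle-treated and 7441, 10455, 9363, 8179 and 9064 in pair-fed mice, without overlap, at -0.43 (SE 0.11, adjusted p = 0.0448). Without vehicle-treated mouse 3 or pair-fed mouse 2 or 5 it no longer passed (highest 0.116). Ank2 (ankyrin-B, which places dystrophin at costameres) was at -0.30 (SE 0.08, adjusted p = 0.0557) and lost this without any 1 of vehicle-treated mice 1, 2 and 4 or pair-fed mice 2 and 6 (highest 0.138). Between GDF15 and pair-feeding 0 of the 14 passed and 5 had an unadjusted p under 0.05. Of 11 genes of membrane repair 0 passed in any comparison, with 4, 2 and 4 at an unadjusted p under 0.05. The largest difference between GDF15 and pair-feeding among them was that of Anxa1 (annexin A1), at 0.58 (SE 0.20, adjusted p = 0.209).

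The other water channels were read beside Aqp4. Only Aqp1, the channel of capillary endothelium and red cells, and Aqp7, a glycerol channel of fat and endothelium, had counts high enough to be tested. Aqp1 had means of 6342 ± 611 (SD, n = 5) in vehicle, 7589 ± 926 (n = 6) in GDF15 and 7545 ± 862 (n = 5) in pair-fed mice, with a difference between GDF15 and pair-feeding of 0.01 (SE 0.09, interval -0.18 to 0.19, adjusted p = 0.985). Aqp7 had means of 140 ± 19.8 (n = 5), 128 ± 23.1 (n = 6) and 107 ± 11.8 (n = 5), at 0.24 (SE 0.13, adjusted p = 0.452) between GDF15 and pair-feeding. For pair-fed against vehicle Aqp7 was at -0.38 (SE 0.14, interval -0.67 to -0.10, adjusted p = 0.129), and its 3 means lay in the order of those of Aqp4, with overlapping groups. The means of Dmd, Dtna and Sspn lay in this order too, so it is not particular to water channels. Neither Aqp1 nor Aqp7 passed in limma, with 0, 1 and 2 of them at an unadjusted p under 0.05 in the order of comparisons used above. Kcnj10, the potassium channel found with aquaporin-4 in glia, was near 0 here, with 0 to 2.95 normalized counts per library. Of 8 tested channels and pumps for potassium and cell volume, 0 passed in any comparison in limma, with 1, 1 and 2 at an unadjusted p under 0.05. The largest difference between GDF15 and pair-feeding among them was that of Trpv4, a cation channel opened by cell swelling, at 0.37 (SE 0.30, adjusted p = 0.64).

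**Figure D4:**
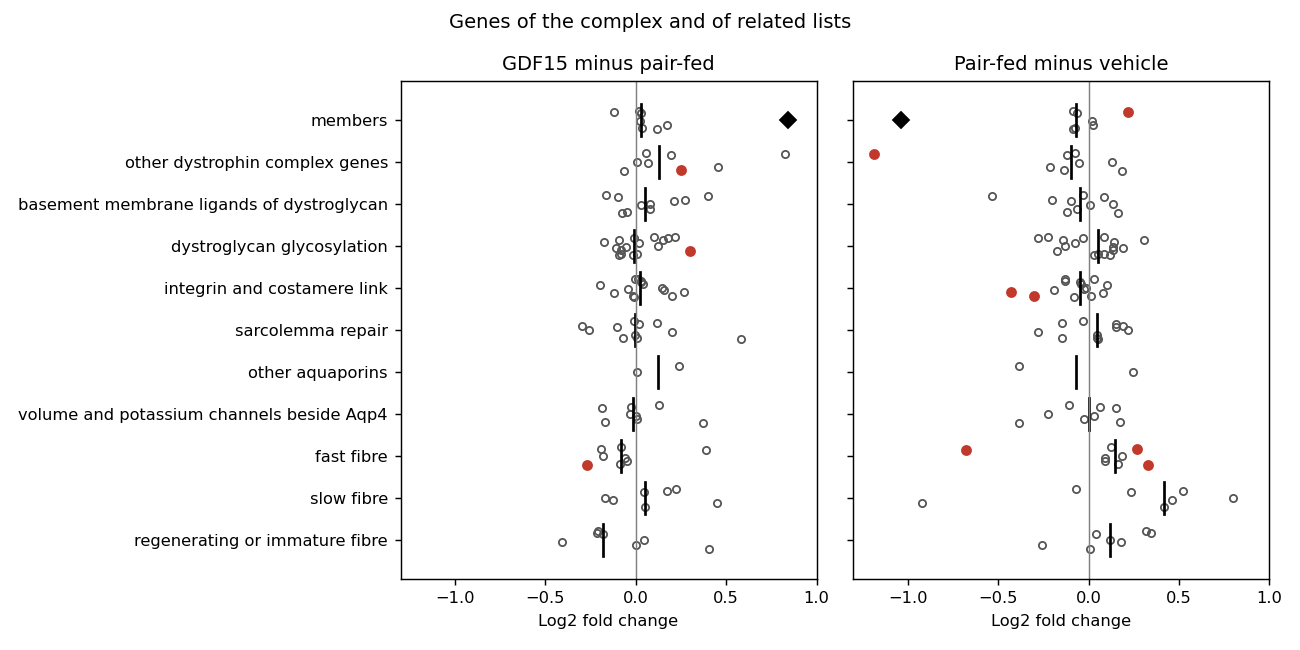
Log2 fold change (horizontal axes) of each tested gene of the complex and of related lists, with red points for genes past an adjusted p of 0.1, open points for the others, a black diamond for Aqp4, which is shown as a description, and a bar at the median of each list. In GDF15 against pair-fed, list medians lie between -0.18 and 0.13, while Aqp4 (0.84) and Dtnb (0.82) lie far from them. Dtnb has low counts there (means 17.3 and 9.34), its groups overlap, and it did not pass (adjusted p = 0.291 in limma).

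Aquaporin-4 is made in fast fibres, so fibre genes were set beside it. Of 8 fast fibre genes, Myh1 (myosin IIx) fell in pair-fed against vehicle-treated mice, while Actn3 (alpha-actinin-3) and Pvalb (parvalbumin) rose. Among all tested genes, 6.37% passed in that comparison. Myh1 was at -0.68 (SE 0.14, adjusted p = 0.0123), with 174894, 166269, 188359, 166146 and 131259 normalized counts in vehicle-treated mice and 77806, 139363, 110927, 99493 and 95028 in pair-fed mice. Actn3 was at 0.33 (SE 0.07, adjusted p = 0.0167), without overlap, and Pvalb at 0.27 (SE 0.07, adjusted p = 0.0538). Between GDF15 and pair-feeding Actn3 fell, at -0.27 (SE 0.07, adjusted p = 0.0678), while Myh1 was at 0.39 (SE 0.13, adjusted p = 0.193). Myh4 was at -0.18 (SE 0.08, adjusted p = 0.36). Against vehicle, 7 of the 8 fast fibre genes were higher in pair-fed mice and 1, Myh1, was lower, with a median of 0.14. Myh2 (myosin IIa), which was not on that list and was added after its values were seen, lay with Myh1, at -0.61 for pair-fed against vehicle (SE 0.26, adjusted p = 0.216) and 0.39 for GDF15 against pair-fed (SE 0.25, adjusted p = 0.531), and its groups overlapped. The Pvalb value no longer passed without vehicle-treated mouse 2 or 5 or pair-fed mouse 2, 5 or 6 (highest 0.133), and that of Actn3 between GDF15 and pair-feeding no longer passed without GDF15-treated mice 2, 3, 4 or 5 or pair-fed mice 2, 5 or 6 (highest 0.192). None of 7 slow fibre genes and of 7 tested genes of regenerating or immature fibres passed in any comparison in limma. At an unadjusted p under 0.05 there were 0, 0 and 1 of the slow and 0, 0 and 2 of the regenerating genes, in the order used above. The largest values between GDF15 and pair-feeding were 0.45 for Myl3 (adjusted p = 0.662) and -0.41 for Myf5 (adjusted p = 0.466). Against vehicle, 5 of the 7 slow genes were higher in pair-fed mice (median 0.42) and 6 of the 7 in GDF15-treated mice (median 0.33). Myl3 went the other way in both, at -0.92 and -0.47. Between GDF15 and pair-feeding 5 of the 7 were higher (median 0.05).

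Markers of other cells were read beside Aqp4 because glia also make the channel. All 5 tested markers of Schwann cells and glia were higher in GDF15-treated than in pair-fed mice, with a median of 0.32 and 0 past the test, and 1 (Mbp) had an unadjusted p under 0.05. The summed counts of the list were 492 to 757 in vehicle, 624 to 846 in GDF15 and 372 to 869 in pair-fed mice, overlapping between all groups. Against vehicle all 5 were lower in pair-fed mice (median -0.13), and so were 5 of 6 fibroblast markers (median -0.14), with 0 of either list past the test and 0 at an unadjusted p under 0.05 in limma. Gfap, the marker of astrocytes and non-myelinating Schwann cells, was near 0 in all groups, with 0 to 3.77 normalized counts. All 6 fibroblast markers (median 0.38, summed counts 4689 to 7910 in GDF15 and 3411 to 6978 in pair-fed mice) and all 6 leukocyte markers (median 0.49, sums 188 to 430 and 162 to 384) also lay higher in GDF15-treated than in pair-fed mice, with 0 past the test in this comparison and 1 of each at an unadjusted p under 0.05. In pair-fed against vehicle-treated mice 0.819% of all tested genes were called. There, 4 of the 6 leukocyte markers were lower in pair-fed mice (median -0.29) and 1 was called, Ptprc, the pan-leukocyte antigen CD45. Its counts were low, at 14.1, 15.8, 17.9, 13.9 and 24.5 in vehicle-treated mice, 4.82, 7.31, 14.8, 10.9 and 5.95 in pair-fed mice, and 10.5 to 16.04 with a median of 14.6 in GDF15-treated mice. The groups overlapped, and their means lay in the order of those of Aqp4, as did those of Dmd, Dtna and Sspn. The Ptprc value was -0.97 for pair-fed against vehicle (SE 0.28, adjusted p = 0.0634) and 0.66 for GDF15 against pair-fed (SE 0.27, adjusted p = 0.29). The former no longer passed without vehicle-treated mouse 2, 3 or 5 or pair-fed mouse 2 or 6 (highest 0.155), and on the deposited values it was only -0.14, under the limit for a call. All 7 endothelial markers were lower in GDF15-treated than in vehicle-treated mice (median -0.19, with 3 at an unadjusted p under 0.05), and 6 of the 7 were lower in pair-fed mice (median -0.17, with 5). Among them Kdr, the VEGF receptor, fell against vehicle in both treated groups, at -0.66 in GDF15-treated (SE 0.08, adjusted p = 0.00116) and -0.50 in pair-fed mice (SE 0.09, adjusted p = 0.00473). Of red blood cell markers all 3 tested were higher in GDF15-treated than in pair-fed mice (median 1.17) and than in vehicle-treated mice (median 1.24), with 0 past the test and 0 at an unadjusted p under 0.05 in limma. Their summed counts varied widely, from 260 to 3146 in vehicle, 838 to 2556 in GDF15 and 79.9 to 3743 in pair-fed mice. All 6 adipocyte markers were higher than in vehicle-treated mice in both treated groups (median 0.44 in GDF15-treated and 0.58 in pair-fed mice), again with 0 past the test and 0 at an unadjusted p under 0.05 in limma, and their sums of 85.8 to 402 in vehicle, 50.8 to 1193 in GDF15 and 216 to 600.2 in pair-fed mice overlapped. Of 6 markers of smooth muscle and pericytes 0 passed in any comparison in limma, with 0, 0 and 1 at an unadjusted p under 0.05. The part of these cells in the Aqp4 values was not tested.

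The genes whose profile was nearest to that of Aqp4 were found by the root mean square difference between centred log2 values over the 16 libraries. This measure was 0.28 for P2ry1, 0.29 for Casq2, 0.29 for St3gal5, 0.30 for Tfrc and 0.31 for Nmrk2, against 0.52 for a flat profile and a median of 0.56 over the 11840 other tested genes. P2ry1 encodes a purinergic receptor, Casq2 the slow and cardiac calsequestrin, St3gal5 the synthase of ganglioside GM3, Tfrc the transferrin receptor and Nmrk2 a nicotinamide riboside kinase of muscle. Since they were picked for this likeness, their values are a description. Pair-fed against vehicle they lay at -0.80, -0.82, -0.53, -0.97 and -0.89, and GDF15 against pair-fed at 0.54, 0.52, 0.34, 0.73 and 0.85. Myh1 stood in 8th place of this order, at 0.31.

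**Figure D5:**
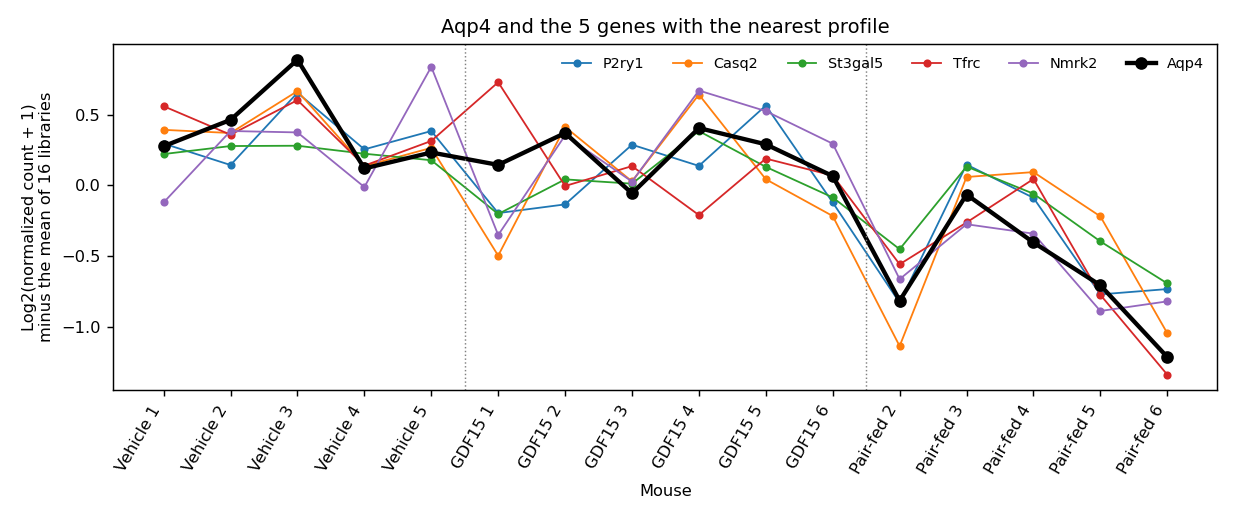
Log2(normalized count + 1) minus the mean of the 16 libraries (vertical axis) for Aqp4, in black, and its 5 nearest genes, by mouse (horizontal axis, groups divided by dotted lines). Pair-fed mice 2, 5 and 6 lie lowest for Aqp4, and pair-fed mouse 3 lies nearest to the other groups.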

How the data were processed

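Per the submitters' processing notes and the study's methods, reads of 50 bases per end were trimmed with Trim Galore, quantified with Salmon and normalized with DESeq2 (build mm10); versions, annotation and strand setting are not given in the sources used here. The authors deposited log2 values of 14538 genes in the form of a variance stabilizing transformation, between 7.32 and 19.96, with 8459 values at the lowest, which stands for a count of 0. These were transformed back to normalized counts. Of low values, 87.9% to 96.7% per library were then whole multiples of 1 step (within 0.1 reads), which gave the approximate depth. Whole reads were not recovered for genes with several transcripts, so no count model was used. Normalized counts with 1 added were tested on a log2 scale with limma 3.58.1 (R 4.3.3, lmFit and eBayes with a trend, two-sided, all 16 libraries, no covariate), and p-values were adjusted over the 11841 genes that averaged 10 or more. The thresholds are those of the study for this muscle. The fold changes of low genes are understated on this scale. The script was tested on simulated data. Python 3.11.15 and pandas 2.3.3 were used for the rest. No batch is given in the labels.

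The members, the gene lists and the rule for named genes were chosen with earlier results of these data known. Named were the 8 members, genes of the complex, partner, channel and fibre lists with an adjusted p under 0.1 in any comparison, the gene of each such list with the largest difference between GDF15 and pair-fed mice, and the 5 genes nearest to Aqp4. Nos1, Utrn, Aqp1, Myh4, Myh2, Kdr, Ptprc, Kcnj10 and the cell markers were named for their role, partly after values were seen. Lists were described by counts and medians, with no set test, and some genes left out of them are not reported here. The 12 alternatives tried were other pseudocounts, minimum counts, scalings, thresholds and models of the spread, the deposited scale, fits of 2 groups and the mouse number as a block, and each of the 16 libraries was left out in turn.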

Additional observations from a re-analysis of the deposited data

Results flagged for a closer look

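Sgcd in vehicle-treated mouse 2, at 40.0 normalized counts, stood apart as the lowest of its group of 5. Its gap to the nearest mouse was 0.773 of the group's range, against a critical value of 0.710. Of the 24 groups of member values looked at, chance alone would place about 1 in 20 past this limit. The value rests on about 46.0 reads. Without this mouse the Sgcd difference between pair-fed and vehicle-treated mice was -0.08 in place of 0.02, and it passed no test either way.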

How the results depend on the processing

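None of the 7 complex genes changed its side of the adjusted p with a library left out or under the other alternatives, except Dag1 between GDF15 and pair-fed mice with equal summed counts. With equal summed counts the median of all genes shifted by only 0.04. On the deposited values, where log2 differences are smaller, 0 of the 8 were above 0.6 between GDF15 and pair-fed mice (Aqp4 at 0.51). Differences near 0 changed sign without passing a test: with the mouse number as a replicate block Dmd (-0.0056) and Dtna (-0.0078) in GDF15 against pair-fed, and with equal summed counts Sgcb (-0.0297) and Sgcd (-0.0243) in pair-fed against vehicle. With libraries left out, Dmd ranged from -0.0275 to 0.0860 and Dtna from -0.0195 to 0.0388 in GDF15 against pair-fed, Dmd from -0.0866 to 0.0134 in GDF15 against vehicle, and Sgcd from -0.0813 to 0.09577 in pair-fed against vehicle.

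The number of all genes called moved more. Between GDF15 and pair-fed mice 33 were called, 18 at an adjusted p under 0.05, 7 on the deposited values and 15 to 62 with a library left out (21 and 19 without GDF15-treated mice 2 and 4, and 17, 62, 15 and 18 without pair-fed mice 2, 3, 5 and 6). For GDF15 against vehicle 36 were called, 23 at 0.05, 9 on the deposited values and 21 to 38 with a library left out (22 and 23 without vehicle-treated mice 2 and 3, and 21 without GDF15-treated mouse 2). For pair-fed against vehicle 97 were called, 56 at 0.05, 17 on the deposited values and 60 to 157 with a library left out (63, 157, 60 and 60 without pair-fed mice 2, 3, 5 and 6). The cause was not tested. The percentages of called genes given with the members therefore hold for the settings named there.

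The groups share mouse numbers but not mice. Deviations from the group means of 14 same-numbered pairs correlated at -0.0994 to 0.0665 (median -0.03), and 1 of 16 libraries correlated best with its own number. This gave no sign of pairing by number. It cannot exclude that rations were matched by number, since mice with matched intake need not deviate alike. With the number as a replicate block, 20 genes were called in GDF15 against vehicle in place of 36, and none of the 7 complex genes changed its side of the threshold. Among the other named genes, Dtnb, Ank2 and Ptprc no longer passed with that block, B3galnt2 and Actn3 (between GDF15 and pair-feeding) without a trend in the spread, Dtnb, Ptprc and Actn3 in fits of only the 2 groups, and Actn3 with quantile scaling (-0.13). Of values that still passed, Cav3 was 0.16 and Ank2 -0.18 on the deposited values, and Pvalb was 0.16 with quantile scaling. The values of Sgcd, Dtnb and Ptprc rest on few reads, and counting error was not separated from the spread between mice.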
